A study of Mus musculus with 16 samples.

Results

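Lipofibroblasts are interstitial fibroblasts of the alveolar wall that store neutral lipid in droplets and pass lipid to alveolar type 2 cells, which use it to make surfactant. The nuclear receptor PPARγ maintains their lipid-storing state, perilipin 2 coats their droplets, and lipoprotein lipase releases fatty acids from circulating lipoproteins for uptake. Lipid droplet coats, lipases and fatty acid carriers are not private to this cell: adipocytes, macrophages, endothelial cells and type 2 cells use several of the same genes. The 10 genes described here were chosen by symbol as genes of lipofibroblasts and lipid droplets: Plin1, Plin2, Plin4, Cidea, Cidec, Pnpla2, Pparg, Lpl, Fabp4 and Tcf21. They are 10 of the 20166 genes tested, all 10 passed the filter on low signal, and 21 of the 31453 usable named array features name them.

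The samples were homogenates of lungs from mouse pups at postnatal day 3, hybridised to a one-colour microarray with 4 arrays in each of 4 groups. The groups were Fgf10+/- pups in hyperoxia, which breathed 85% oxygen from postnatal day 0 to day 3, Fgf10+/- pups in normoxia, wild-type pups in the same hyperoxia, and wild-type pups in normoxia. Fgf10+/- pups are heterozygous for Fgf10, a growth factor gene of the lung mesenchyme whose producing cells include precursors of lipofibroblasts. The strain, the litters and any pooling of animals are not given in the labels, so the p-values measure the spread between these samples. In a homogenate, fewer cells of a type and less RNA per cell cannot be told apart. Levels are log2 intensities, a difference of 1 is a doubling, and the level of a feature is comparable between arrays but not with that of another feature.

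The array percentiles were nearly the same throughout, with medians near 4.50 and 25th percentiles near 3.69. Across the tested genes, arrays of a group correlated with r between 0.974 and 0.983, and precision is limited by having 4 arrays a group. Fgf10 averaged 7.64 ± 0.26 in Fgf10+/- hyperoxia, 8.28 ± 0.32 in Fgf10+/- normoxia, 7.85 ± 0.18 in wild-type hyperoxia and 7.80 ± 0.39 in wild-type normoxia (SD, n = 4 each). Against wild type it differed by -0.21 in hyperoxia (limma adjusted p = 0.835) and by 0.48 in normoxia (limma adjusted p = 0.33), so neither difference passed and Fgf10 does not check the label. Where its feature lies relative to the inactivated part is not known here. Wild-type normoxia replicate 4 stood apart by high skeletal muscle genes and by some fat genes. Acta1 stood at 11.26 and Ucp1 at 7.50 there, against at most 5.83 and 3.92 in the other 3 arrays of its group. Counts and calls that changed without this array are given both ways. Replicate 1 of Fgf10+/- hyperoxia stood apart by inflammatory genes, with the cytokine Il1b at 8.38 against 6.18 to 6.46 in the other 3 arrays.

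The promoter sequences of Plin2, Pnpla2 and Cidec are shown because these are the droplet genes on which the calls below turn, with Cidec at both of its annotated starts. They come from RefSeq on GRCm38.p6, run from 250 bases before the transcript start to 50 after it, and are written 5′ to 3′ on the gene's strand. In capitals are matches to the direct repeat of AGGTCA spaced by 1 base that PPAR and RXR bind (up to 2 mismatches), to the C/EBP element TTGCNNAA and to the GC box GGGCGG, each searched on both strands. The Plin2 window is chr4:86670010-86670309 on the minus strand, the Pnpla2 window is chr7:141454938-141455237 on the plus strand, and the Cidec windows are chr6:113435711-113436010 and chr6:113434715-113435014 on the minus strand.
Plin2: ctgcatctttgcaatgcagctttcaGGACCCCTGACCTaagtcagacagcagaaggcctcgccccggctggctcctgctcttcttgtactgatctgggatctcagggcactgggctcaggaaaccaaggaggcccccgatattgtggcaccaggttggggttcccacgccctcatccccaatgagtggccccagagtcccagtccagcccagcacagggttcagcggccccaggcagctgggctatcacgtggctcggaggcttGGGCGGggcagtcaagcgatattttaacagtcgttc
Pnpla2: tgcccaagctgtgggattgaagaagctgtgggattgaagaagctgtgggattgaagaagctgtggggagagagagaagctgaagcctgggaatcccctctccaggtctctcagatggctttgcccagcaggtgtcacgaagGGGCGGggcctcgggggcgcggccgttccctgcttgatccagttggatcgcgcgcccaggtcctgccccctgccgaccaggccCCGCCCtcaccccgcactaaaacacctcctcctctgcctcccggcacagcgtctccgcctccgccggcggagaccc
Cidec start 1: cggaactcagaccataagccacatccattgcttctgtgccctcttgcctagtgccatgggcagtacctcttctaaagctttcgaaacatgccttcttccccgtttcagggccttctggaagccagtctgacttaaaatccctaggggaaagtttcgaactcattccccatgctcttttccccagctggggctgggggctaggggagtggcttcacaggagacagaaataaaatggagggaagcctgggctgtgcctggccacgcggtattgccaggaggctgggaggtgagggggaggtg
Cidec start 2: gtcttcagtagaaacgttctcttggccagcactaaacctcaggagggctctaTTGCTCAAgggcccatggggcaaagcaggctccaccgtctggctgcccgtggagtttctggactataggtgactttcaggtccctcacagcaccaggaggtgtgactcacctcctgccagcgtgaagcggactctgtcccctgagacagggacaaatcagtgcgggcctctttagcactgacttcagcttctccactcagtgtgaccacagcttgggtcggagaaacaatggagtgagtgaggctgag
The Plin2 window holds a direct repeat with 2 mismatches at -225 and a GC box at 14, positions being those of the leftmost printed base relative to the start. The Pnpla2 window holds GC boxes at -109 and -26, and the second Cidec window a C/EBP element at -198. No searched motif, the TATA box TATAAA included, matched in the first Cidec window. Of 32851 promoters of all genes, 3.86% hold the direct repeat at this tolerance, 10.8% the C/EBP element, 13.6% the TATA box and 35.7% the GC box. A match is a description of letters and not a binding site. Of the 10 genes, 7 had an entry in the promoter table.

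In Fgf10+/- lungs 3 of the 10 genes rose under hyperoxia: Lpl, the secreted lipase that feeds fatty acids to lipid-storing cells, Plin2, the droplet coat protein of lipofibroblasts, and Pnpla2, the adipose triglyceride lipase that opens droplet breakdown. None of the 10 fell by limma's test in that comparison, where 1 lower gene, Cidec, had an unadjusted p under 0.05. In wild-type lungs the same exposure left 2 genes past the test, and both fell: Cidec, which fuses droplets into larger ones, and Pnpla2. Of all 20166 genes, 23.8% passed in the Fgf10+/- comparison (13.0% higher and 10.7% lower) and 19.1% in the wild-type comparison (10.3% higher and 8.75% lower), so 3 and 2 of 10 are close to these shares. Without wild-type normoxia replicate 4, 5 of the 10 rose in Fgf10+/- (Plin4 and Fabp4 in addition, where 13.3% of all genes rose), and in wild type Plin4 rose, Cidec fell and Pnpla2 did not pass (where 8.37% of all genes rose and 7.46% fell). Without regard to the test, 5 of the 10 lay higher and 1 lower with no overlap between the arrays in Fgf10+/-, against 13.8% and 11.1% of all genes, and 2 higher and 2 lower in wild type, against 13.6% and 11.2%. When wild-type normoxia replicate 4 was left out, Plin4 and Cidea also lay higher without overlap in wild type. The share over all genes was not computed for that set of arrays. The median difference of the 10 genes was 0.55 in Fgf10+/- and 0.19 in wild type, against 0.03 over all genes in each, and the wild-type median was 0.33 without normoxia replicate 4. Tests are limma's moderated test over 16 arrays with Benjamini-Hochberg adjustment over all genes, called at an adjusted p under 0.05.

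**Figure D1:**
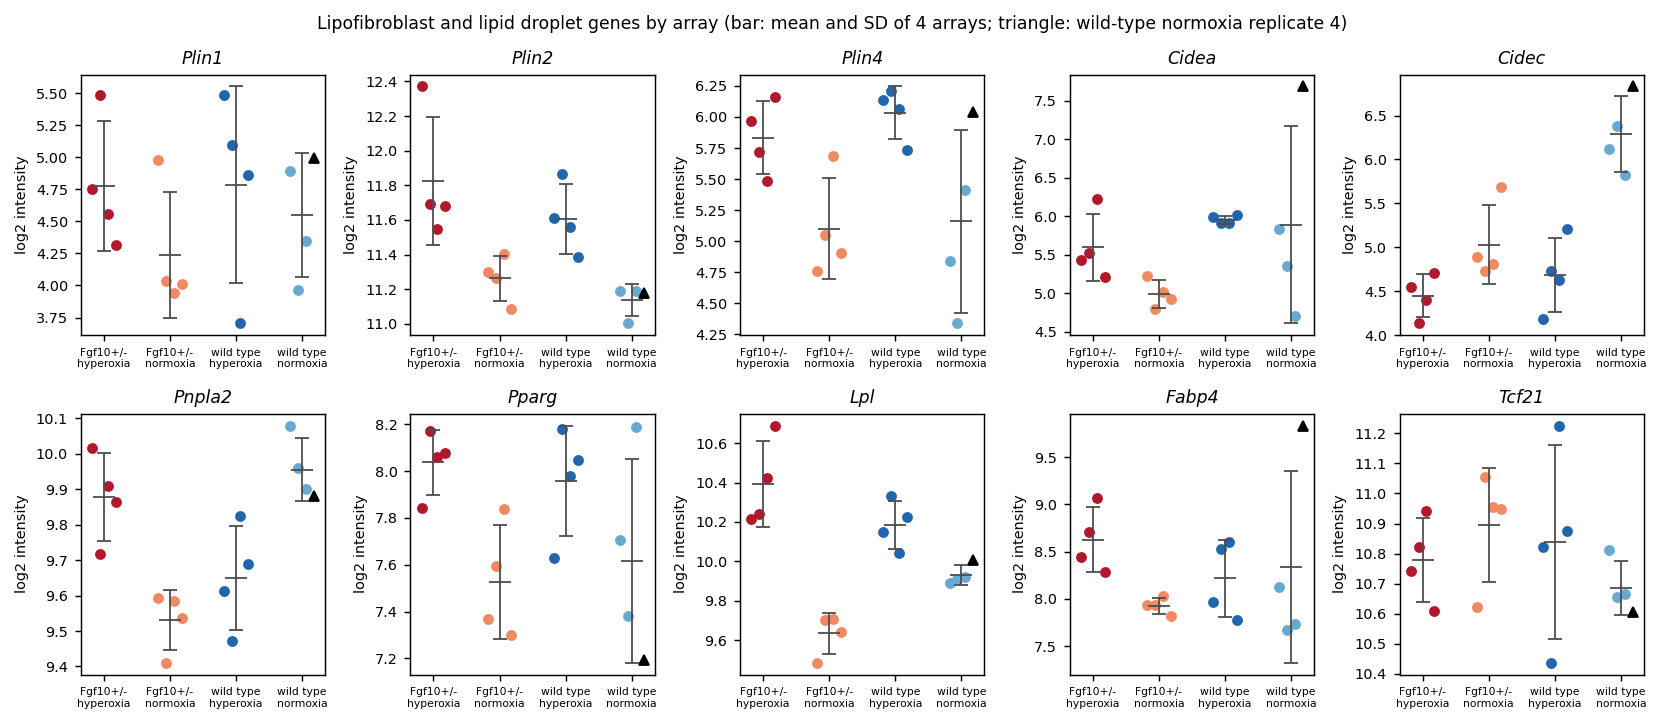
Log2 intensity (vertical axes) of each gene in every array, grouped by genotype and oxygen, with horizontal bars at the mean and whiskers of 1 SD over 4 arrays. All 4 Plin2 and Lpl points of hyperoxia lie above the normoxia points of the same genotype, Pnpla2 lies higher in hyperoxia in Fgf10+/- and lower in wild type, and the black triangle, wild-type normoxia replicate 4, is the highest point for Cidea, Cidec and Fabp4.

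Plin2, the perilipin found on droplets of most cells, was measured at 12.37, 11.69, 11.55 and 11.68 in the 4 Fgf10+/- hyperoxia arrays, against 11.30, 11.27, 11.40 and 11.09 in Fgf10+/- normoxia. All 4 hyperoxia arrays lay above all 4 normoxia arrays, and replicate 1 of hyperoxia was the highest. The difference was 0.56 (SE 0.16, 1.47-fold, limma adjusted p = 0.0192). In wild type the levels were 11.61, 11.87, 11.56 and 11.38 in hyperoxia, against 11.19, 11.00, 11.19 and 11.18 in normoxia. These groups did not overlap either, yet the difference of 0.47 (SE 0.16) missed the threshold at an adjusted p of 0.0553 by limma. The gene thus had the same order of groups in both genotypes, with hyperoxia above normoxia, and its interaction was 0.09 (SE 0.23, limma adjusted p = 0.966). The Fgf10+/- call was lost without normoxia replicate 4 (adjusted p = 0.0587) and in a limma fit to those 2 groups alone (adjusted p = 0.0789). The wild-type rise passed in a limma fit to the wild-type groups alone (adjusted p = 0.0365) and without wild-type hyperoxia replicate 4 (adjusted p = 0.0455). Which genotype was called for Plin2 thus depended on the fit.

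Plin4, a perilipin that coats nascent droplets in fat and muscle, was measured at 5.97, 5.72, 5.49 and 6.16 in Fgf10+/- hyperoxia, against 4.76, 5.05, 5.68 and 4.90 in Fgf10+/- normoxia. The groups overlapped by 1 normoxia array, replicate 3, and the difference of 0.73 (SE 0.30) did not pass (limma adjusted p = 0.101). In wild type the levels were 6.14, 6.21, 6.07 and 5.73 in hyperoxia, against 4.84, 4.34, 5.41 and 6.04 in normoxia. Only normoxia replicate 4, the array with high muscle genes and some high fat genes, reached the hyperoxia range. With that array the difference was 0.88 (SE 0.30, limma adjusted p = 0.0592), and without it Plin4 rose by 1.17 (SE 0.26, limma adjusted p = 0.00898). Leaving that array out also narrowed the shared spread, and the Fgf10+/- difference then passed at the same 0.73 (limma adjusted p = 0.0440). Plin1, the perilipin of adipocytes, ranged from 3.70 to 5.49 over the 16 arrays, around the array median, and its differences of 0.54 in Fgf10+/- and 0.23 in wild type (SE 0.38 each) did not pass.

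Cidec, the droplet fusion protein of fat cells, was measured at 4.55, 4.13, 4.40 and 4.71 in Fgf10+/- hyperoxia, against 4.89, 4.73, 4.81 and 5.69 in Fgf10+/- normoxia. In wild type it was measured at 4.18, 4.73, 4.63 and 5.21 in hyperoxia, against 6.12, 6.38, 5.82 and 6.83 in normoxia. The 4 wild-type normoxia arrays were thus the 4 highest of the 16, and hyperoxia lay below normoxia without overlap in each genotype. The wild-type fall was 1.60 on the log2 scale (difference -1.60, SE 0.26, 3.04-fold lower, limma adjusted p = 0.000765). The hyperoxia levels lay around the array median, near 4.50, so the size of the fold is less sure. Without replicate 4 of normoxia it was -1.42 (limma adjusted p = 0.00286). In Fgf10+/- the difference was -0.58 (SE 0.26), which did not pass (limma adjusted p = 0.133).

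A second Cidec feature did not show this pattern. It was measured at 4.62, 4.36, 5.08 and 4.21 in Fgf10+/- hyperoxia, against 4.54, 4.07, 3.85 and 4.66 in Fgf10+/- normoxia. In wild type it stood at 4.80, 4.94, 4.83 and 4.40 in hyperoxia, against 4.65, 5.35, 4.54 and 5.05 in normoxia. The groups overlapped in both genotypes, with differences of 0.29 in Fgf10+/- and -0.15 in wild type. Averaged over the 2 features, the wild-type difference was -0.88 (SE 0.20, limma adjusted p = 0.00811) and the Fgf10+/- difference was -0.15 (SE 0.20). The files do not say which Cidec transcript each feature reads, and the Cidec result is that of 1 feature.

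Cidea, a related droplet protein abundant in brown fat, was measured at 5.44, 5.52, 6.22 and 5.21 in Fgf10+/- hyperoxia, against 5.23, 4.80, 5.02 and 4.93 in Fgf10+/- normoxia. Its wild-type levels were 5.99, 5.90, 5.91 and 6.01 in hyperoxia, against 5.83, 5.35, 4.70 and 7.68 in normoxia. The wild-type hyperoxia arrays lay close together, while normoxia replicate 4 lay above every other array. The differences were 0.60 (SE 0.45) in Fgf10+/- and 0.06 (SE 0.45) in wild type, and neither passed. Without replicate 4 the wild-type value was 0.66, with all hyperoxia arrays above the 3 normoxia arrays, and still did not pass (limma adjusted p = 0.0986).

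Pnpla2 encodes the lipase that makes the first cut in stored triglyceride. It was measured at 10.02, 9.72, 9.91 and 9.86 in Fgf10+/- hyperoxia, against 9.59, 9.41, 9.58 and 9.54 in Fgf10+/- normoxia. In wild type it was measured at 9.61, 9.47, 9.82 and 9.69 in hyperoxia, against 10.08, 9.96, 9.90 and 9.88 in normoxia. The hyperoxia arrays lay above all normoxia arrays in Fgf10+/- and below all of them in wild type. It rose by 0.35 in Fgf10+/- (SE 0.10, 1.27-fold, limma adjusted p = 0.0180) and fell by 0.31 in wild type (difference -0.31, SE 0.10, limma adjusted p = 0.0405). The difference between these responses was 0.65 (SE 0.14, 95% interval 0.36 to 0.95), with an unadjusted p of 0.000309 and a limma adjusted p of 0.499. The adjusted test of the interaction called 0 of 20166 genes in limma, the only tool run, while 1334 had an unadjusted p under 0.05, among them Pnpla2, Lpl and Cidec. The wild-type call was lost in 7 of 8 limma fits with 1 array removed (adjusted p up to 0.123), the Fgf10+/- call in 2 of 8 (up to 0.0578). Both calls were lost in limma fits to the compared groups alone (adjusted p = 0.0624 in Fgf10+/- and 0.0917 in wild type).

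Lpl was measured at 10.22, 10.24, 10.42 and 10.69 in Fgf10+/- hyperoxia, against 9.48, 9.70, 9.71 and 9.64 in Fgf10+/- normoxia. Every hyperoxia array exceeded every normoxia array by more than the spread within either group. It rose by 0.76 (SE 0.11, 1.69-fold, limma adjusted p = 0.000203), a call kept in all 17 alternative fits tried. In wild type the levels were 10.15, 10.33, 10.04 and 10.22 in hyperoxia, against 9.89, 9.91, 9.92 and 10.01 in normoxia. These did not overlap, but the difference of 0.26 (SE 0.11) did not pass (limma adjusted p = 0.126). The interaction was 0.50 (SE 0.15, unadjusted p = 0.00574, limma adjusted p = 0.618). A second Lpl feature gave 0.60 in Fgf10+/- and 0.25 in wild type, near the values of the first.

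Fabp4, a fatty acid carrier of adipocytes, macrophages and capillary endothelium, was measured at 8.45, 8.71, 9.07 and 8.28 in Fgf10+/- hyperoxia, against 7.93, 7.94, 8.03 and 7.81 in Fgf10+/- normoxia. The groups did not overlap, and the difference of 0.70 (SE 0.38) did not pass with all arrays (limma adjusted p = 0.216). It passed in a limma fit to the compared groups alone (adjusted p = 0.0283). In wild type the levels were 7.97, 8.53, 8.60 and 7.77 in hyperoxia, against 8.13, 7.67, 7.73 and 9.83 in normoxia. Normoxia replicate 4 was the highest of all 16 arrays, which widened the spread shared by all comparisons. Without that array the Fgf10+/- difference passed (0.70, SE 0.21, 1.62-fold, limma adjusted p = 0.0242), while the wild-type difference was -0.12 with the array and 0.38 without it (limma adjusted p = 0.297).

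**Figure D2:**
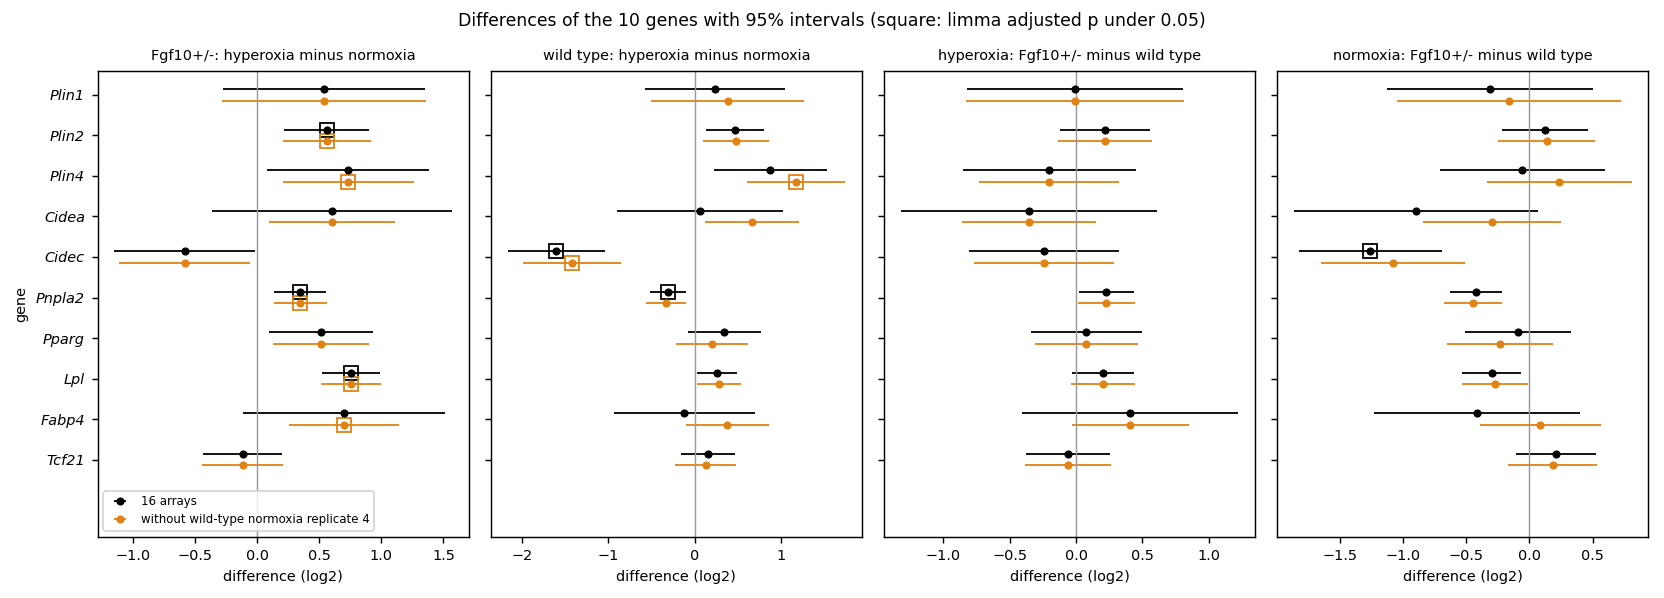
Log2 difference (horizontal axes) of each gene with its 95% interval in 4 comparisons, black for all 16 arrays and orange without wild-type normoxia replicate 4, with squares at limma adjusted p under 0.05. Squares mark Plin2, Pnpla2 and Lpl in Fgf10+/- with either set of arrays, and Plin4 and Fabp4 there only in orange. In wild type they mark Cidec with either set, Pnpla2 only in black and Plin4 only in orange. For genotype in normoxia they mark Cidec only in black.

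Pparg, the nuclear receptor of the fat storage programme, is read by 10 features. The brightest of them, used in the tests, was measured at 7.84, 8.17, 8.06 and 8.08 in Fgf10+/- hyperoxia, against 7.37, 7.59, 7.84 and 7.30 in Fgf10+/- normoxia. In wild type it was measured at 7.63, 8.18, 7.98 and 8.05 in hyperoxia, against 7.71, 7.38, 8.19 and 7.19 in normoxia. The Fgf10+/- groups were just apart and the wild-type groups overlapped. The differences of 0.51 (SE 0.20, limma adjusted p = 0.0748) and 0.34 (SE 0.20, limma adjusted p = 0.262) did not pass. In other limma fits the Fgf10+/- difference of this feature did pass. The adjusted p was 0.0494 with the 50th percentile filter, 0.0324 with trend and robust options and 0.0482 with the compared groups alone.

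The mean of the 10 Pparg features had a smaller spread. It was 7.89, 7.89, 7.84 and 7.68 in Fgf10+/- hyperoxia, against 7.06, 7.40, 7.30 and 7.07 in Fgf10+/- normoxia. In wild type it was 7.75, 7.90, 7.76 and 7.77 in hyperoxia, against 7.50, 7.24, 7.44 and 7.27 in normoxia. Hyperoxia lay above normoxia without overlap in each genotype, by 0.62 in Fgf10+/- and 0.43 in wild type. Each had an exact two-sided permutation p of 0.0286, the smallest that 4 against 4 arrays allow, and 0.0571 after adjustment over the 4 comparisons of this mean. In the limma fit that averages all features of each gene, Pparg rose in Fgf10+/- (adjusted p = 0.000573) and in wild type (adjusted p = 0.00844). In that fit 11.6% of all genes rose in Fgf10+/- and 8.94% in wild type. All 10 features were higher in hyperoxia, by 0.45 to 0.80 in Fgf10+/- and by 0.31 to 0.56 in wild type. They were read on the same arrays and add no replicates, and the files do not say whether they are spots of 1 probe.

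**Figure D3:**
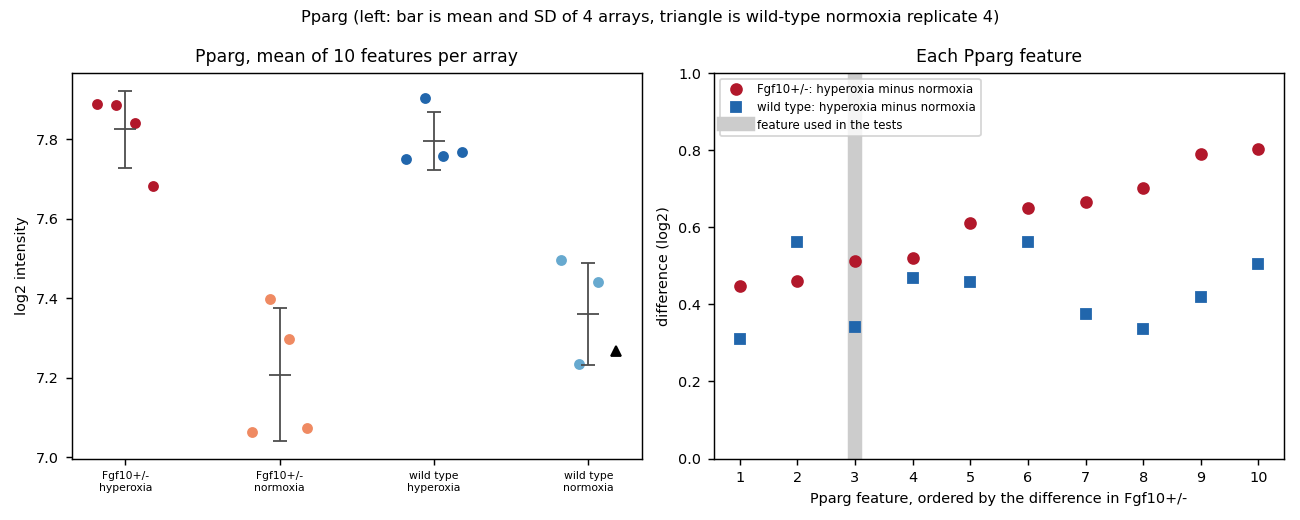
Left, log2 intensity of the mean of 10 Pparg features in every array with group means and 1 SD; right, the log2 difference of hyperoxia minus normoxia for each feature in Fgf10+/- (circles) and wild type (squares), with the feature used in the tests shaded. The hyperoxia arrays lie between 7.68 and 7.90, above all normoxia arrays, which reach 7.50, and every feature lies above 0 in both genotypes.

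Tcf21, a transcription factor that marks lipofibroblasts and their precursors, was measured at 10.74, 10.82, 10.94 and 10.61 in Fgf10+/- hyperoxia, against 10.62, 11.06, 10.96 and 10.95 in Fgf10+/- normoxia. In wild type it was measured at 10.82, 10.44, 11.23 and 10.88 in hyperoxia, against 10.81, 10.65, 10.67 and 10.61 in normoxia. All 4 groups overlapped. The differences were -0.12 in Fgf10+/- (95% interval -0.43 to 0.20) and 0.15 in wild type (95% interval -0.16 to 0.47), and neither passed.

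Genotype was compared within each oxygen level. In normoxia 1 of the 10 genes passed, Cidec, lower in Fgf10+/- (5.03 ± 0.45) than in wild type (6.29 ± 0.43) by 1.26 (difference -1.26, SE 0.26, limma adjusted p = 0.0462), while 0.719% of all genes passed and 0.605% were lower. Without wild-type normoxia replicate 4 the difference was -1.08 and did not pass (limma adjusted p = 0.0640), and the call was lost in 7 of 8 fits with 1 array removed. Pnpla2 averaged 9.53 ± 0.08 in Fgf10+/- and 9.96 ± 0.09 in wild type (difference -0.42, SE 0.10, limma adjusted p = 0.0649), with no overlap between the groups. Lpl averaged 9.63 ± 0.10 in Fgf10+/- and 9.93 ± 0.05 in wild type, also without overlap (difference -0.30, SE 0.11, limma adjusted p = 0.250). Cidec, Pnpla2 and Lpl were those of the 10 genes that lay lower in Fgf10+/- normoxia arrays without overlap, against 4.51% of all genes. In hyperoxia 0 of the 10 passed in limma, against 0.412% of all genes, and 1 had an unadjusted p under 0.05, Pnpla2 (difference 0.23, SE 0.10, adjusted p = 0.493). The widest intervals there were those of Cidea (-1.32 to 0.61), Plin1 (-0.82 to 0.80) and Fabp4 (-0.41 to 1.22).

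The order of the group means differed between the genes. Plin2 and Lpl were highest in Fgf10+/- hyperoxia, then wild-type hyperoxia; the next was Fgf10+/- normoxia for Plin2 (11.26 ± 0.13, against 11.14 ± 0.09 in wild-type normoxia, groups that overlapped) and wild-type normoxia for Lpl. Pnpla2 and Cidec were highest in wild-type normoxia. For Pnpla2 wild-type normoxia was followed by Fgf10+/- hyperoxia (9.88 ± 0.12), whose range it overlapped, then wild-type hyperoxia (9.65 ± 0.15) and Fgf10+/- normoxia. Plin4 was highest in wild-type hyperoxia (6.04 ± 0.21), which overlapped Fgf10+/- hyperoxia (5.83 ± 0.29).

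Related gene lists placed these values in their pathways. Of 21 other lipid droplet genes, 5 rose, 1 fell and 15 did not pass in Fgf10+/-, and 4 rose, 2 fell and 15 did not pass in wild type. Of all genes 13.0% rose and 10.7% fell in Fgf10+/-, and 10.3% rose and 8.75% fell in wild type. Without wild-type normoxia replicate 4, 6 of the 21 rose and 1 fell in Fgf10+/-, and 5 rose and 1 fell in wild type. The perilipin of oxidative tissues, Plin5, rose by 1.02 in Fgf10+/- and 0.85 in wild type (SE 0.13 each). Abhd5, the coactivator that switches on the PNPLA2 lipase, rose by 0.81 and 0.73 (SE 0.09 each), and Agpat2, an acyltransferase of triglyceride synthesis, by 0.83 and 0.64 (SE 0.09 each). Faf2, a protein that reaches droplets from the endoplasmic reticulum, fell by 0.71 and 0.66 (SE 0.12 each). The median of this list was 0.26 in Fgf10+/- and 0.03 in wild type, against 0.03 over all genes, and the wild-type median was -0.05 without that array.

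Of 15 measured partners of lipoprotein lipase and fatty acid uptake genes, 6 rose and 1 fell in Fgf10+/-, and 2 rose in wild type. Among all genes 13.0% rose and 10.7% fell in Fgf10+/-, and 10.3% rose and 8.75% fell in wild type. Fabp3, a fatty acid carrier of heart and muscle, rose by 1.91 in Fgf10+/- and 1.04 in wild type (SE 0.22 each), and Lmf1, which matures lipases, by 0.39 and 0.44 (SE 0.10 each). The fatty acid translocase Cd36 rose by 0.36 in Fgf10+/- (SE 0.10, limma adjusted p = 0.0158) and stood at 0.03 in wild type. The lipoprotein receptor Lrp1 rose by 0.38 in Fgf10+/- (SE 0.12, limma adjusted p = 0.0306) and stood at 0.14 in wild type. Without wild-type normoxia replicate 4, 4 rose and 1 fell in Fgf10+/-. The list's median was 0.36 in Fgf10+/- and 0.04 in wild type.

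Of 25 partners and targets of PPARγ, 5 rose and 1 fell in each genotype, with list medians of 0.14 in Fgf10+/- and 0.06 in wild type. The shares of all genes were 13.0% higher and 10.7% lower in Fgf10+/-, and 10.3% higher and 8.75% lower in wild type. Gpd1, the glycerol phosphate dehydrogenase that supplies the triglyceride backbone, rose by 1.25 in Fgf10+/- and 0.79 in wild type (SE 0.21 each). The coactivator Ppargc1a rose by 1.38 and 1.06 (SE 0.25 each), and Zfp423, a factor of preadipocyte commitment, fell by 0.86 and 0.56 (SE 0.15 each). Ncor1, a corepressor, rose in wild type by 0.43 (SE 0.11) and stood at 0.21 in Fgf10+/-.

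Of 19 further lipofibroblast genes, 1 rose and 8 fell in Fgf10+/-, where 10.7% of all genes fell, and 1 rose and 7 fell in wild type, where 8.75% did. The list medians were -0.36 in Fgf10+/- and -0.18 in wild type. Without wild-type normoxia replicate 4 the wild-type counts were 1 and 6, with a median of -0.12. Pdgfra, the receptor of the growth factor PDGF-A on these fibroblasts, fell by 1.49 in Fgf10+/- and 1.45 in wild type (SE 0.19 each). The parathyroid hormone-related protein receptor Pth1r, through which type 2 cells signal to lipofibroblasts, fell by 0.90 and 1.13 (SE 0.12 each), and the adhesion molecule Vcam1 by 0.92 and 0.54 (SE 0.13 each). The methyltransferase Inmt was the gene that rose, by 3.71 and 2.76 (SE 0.31 each). Of 12 mesenchymal factors expressed beside Tcf21, 5 fell in Fgf10+/-, and in wild type 4 fell and 1, Nr2f2, rose, a call lost without normoxia replicate 4 (limma adjusted p = 0.0707). Those that fell included Hoxa5 (-1.38 in Fgf10+/- and -1.44 in wild type, SE 0.10 each), Prrx1 (-1.02 and -0.72, SE 0.12 each), Tbx4 (-0.68 and -0.71, SE 0.12 each) and Foxf2 (-0.61 and -0.60, SE 0.14 each). Tcf21 itself did not pass in either genotype.

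Markers of other cells that use these genes also moved, and their part in the results was not tested. Beside the counts of these lists, 13.0% of all genes rose and 10.7% fell in Fgf10+/-. In wild type 10.3% of all genes rose and 8.75% fell. Of 8 measured alveolar macrophage genes, 1 rose and 3 fell in Fgf10+/- and 1 rose and 4 fell in wild type. This list holds Cidec, 1 of the 10 genes described here. Cidec is among the 4 that fell in wild type and is part of the list's mean level. Marco, a scavenger receptor, rose by 2.03 in Fgf10+/- and 1.75 in wild type (SE 0.28 each), while Siglecf fell by 1.42 and 1.58 (SE 0.28 each) and Ear2 by 0.75 and 1.24 (SE 0.15 each). The mean level of that list lay between 7.55 and 7.65 in Fgf10+/- hyperoxia, 7.22 and 8.07 in Fgf10+/- normoxia, 7.63 and 7.82 in wild-type hyperoxia, and 7.94 and 8.33 in wild-type normoxia. Of 8 capillary endothelial genes, 1 rose and 3 fell in each genotype, among them Car4, which rose by 0.65 and 0.67 (SE 0.12 each), and Pecam1, which fell by 0.69 and 0.97 (SE 0.14 each). Without wild-type normoxia replicate 4, 1 rose and 2 fell in Fgf10+/- and 1 rose and 1 fell in wild type, where Aplnr (limma adjusted p = 0.0544) and Cdh5 (limma adjusted p = 0.0781) no longer passed. The mean level of the capillary list lay between 10.17 and 10.46 in Fgf10+/- hyperoxia, 10.35 and 10.52 in Fgf10+/- normoxia, 10.25 and 10.48 in wild-type hyperoxia, and 10.39 and 10.55 in wild-type normoxia. Of 6 alveolar type 2 genes, 2 rose in Fgf10+/- (Abca3 by 0.52, SE 0.10, and Sftpa1 by 0.53, SE 0.12) and 1 in wild type (Abca3 by 0.30, SE 0.10), which did not pass without normoxia replicate 4 (limma adjusted p = 0.107). The surfactant protein gene Sftpc lay between 15.97 and 15.99 in all 16 arrays, at the upper end of the scale, so a rise in it could not be read. The other 5 genes averaged 12.25 to 12.31 in Fgf10+/- hyperoxia, 11.97 to 12.20 in Fgf10+/- normoxia, 12.64 to 12.82 in wild-type hyperoxia and 12.61 to 12.78 in wild-type normoxia. In a list of 12 heart muscle genes, added after the values had been seen, Tnnt2 was the gene that rose in Fgf10+/- (0.87, SE 0.17) and Sln and Myl7 fell in wild type (-1.39, SE 0.35, and -1.01, SE 0.27). Its mean level ranged from 8.59 to 9.98 in Fgf10+/- hyperoxia, 8.71 to 9.34 in Fgf10+/- normoxia, 9.16 to 9.25 in wild-type hyperoxia and 9.53 to 9.78 in wild-type normoxia.

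The check of wild-type normoxia replicate 4 for brown fat was part of the plan, which was made with earlier results of these data known. Cidea, Cidec and Fabp4 are adipocyte genes and were highest of all 16 arrays there. Ucp1, the thermogenic carrier that defines brown fat, stood at 7.50 in that array, against 3.37, 3.92 and 3.84 in the others of its group and 2.99 to 4.18 in the other 3 groups. The adipocyte genes Cfd and Adipoq stood at 6.56 and 5.17, against at most 4.54 and 3.76 in the other 3. The excess of the array over the mean of the other 3 was 2.39 for Cidea, 1.99 for Fabp4, 1.18 for Plin4, 0.72 for Cidec, 0.59 for Plin1 and 0.05 for Plin2, and it was -0.57 for Pparg. Of 14 brown fat genes, 3 were highest of 16 in this array. Cidea is among them and is also a gene described here. Of the other 13, 2 were highest (Ucp1 and Cox8b). Prdm16 differed by -0.06, Dio2 by 0.06 and Zic1 by 0.01, while Ppargc1a differed by -1.09, Lhx8 by -0.49 and Slc27a2 by -0.35. The excess of the 14 genes ran from -1.09 to 3.80, with a median of 0.33. Without Cidea the brown fat list averaged 5.70 in this array, 5.11 to 5.34 in the other 3, 5.48 to 5.63 in Fgf10+/- hyperoxia, 4.84 to 5.34 in Fgf10+/- normoxia and 5.61 to 5.82 in wild-type hyperoxia, so it lay within the range of the wild-type hyperoxia arrays. Of 7 white fat genes, Plin1 among them, 2 were highest there, of 12 skeletal muscle genes 10, and of 12 heart muscle genes 3. The excess of the white fat genes ran from -0.50 for Lipe to 2.44 for Cfd, with a median of 0.36. For the skeletal muscle genes it ran from 0.46 to 5.52, with a median of 3.05. Of all genes 6.3% were highest in this array. Acta1, skeletal muscle actin, exceeded the other 3 arrays by 5.52 and Ckm, muscle creatine kinase, by 0.68. The share of fat tissue in that sample was not tested, and Ucp1 lay near the 25th percentile of features in the other 15 arrays, between 2.99 and 4.18.

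**Figure D4:**
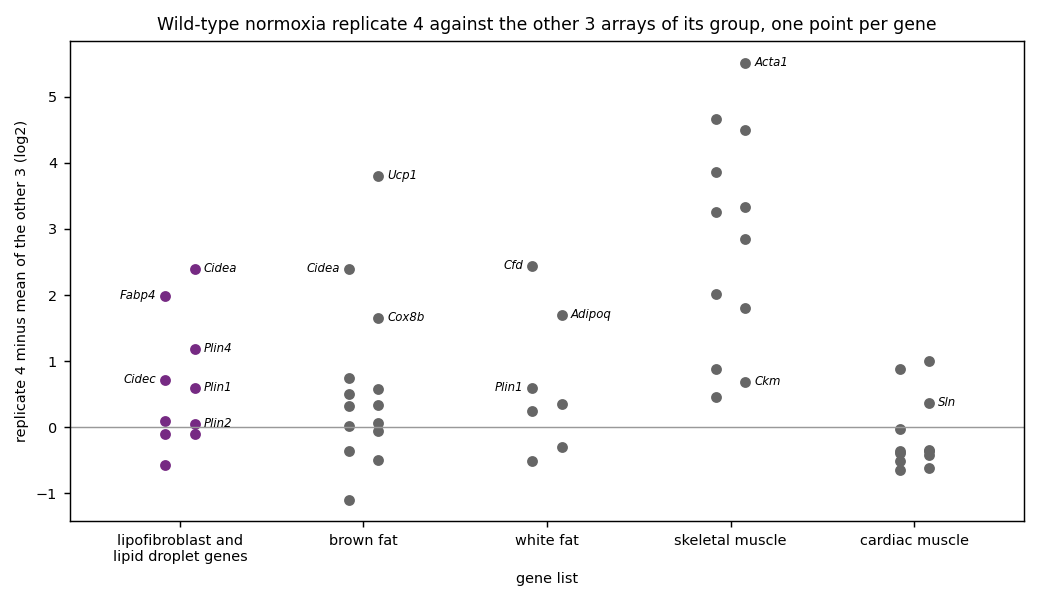
Log2 intensity in wild-type normoxia replicate 4 minus the mean of the other 3 arrays of its group (vertical axis), with a point for each gene of 5 lists. Skeletal muscle genes reach 5.52 for Acta1, Ucp1 reaches 3.80, and of the lipofibroblast and lipid droplet genes Cidea and Fabp4 lie highest while the other 8 lie between -0.57 and 1.18.

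The brown fat list was also compared between oxygen levels. In Fgf10+/-, 5 of its 14 genes rose, against 13.0% of all genes. Among the 5 were Ppargc1a, Cox7a1 (1.25, SE 0.24), Cpt1b (1.16, SE 0.27) and Cox8b (1.68, SE 0.40), which heart muscle also expresses. Ucp1 averaged 3.28 ± 0.17 in Fgf10+/- hyperoxia and 3.91 ± 0.29 in Fgf10+/- normoxia, and 3.22 ± 0.24 in wild-type hyperoxia. Its Fgf10+/- difference was -0.63 (limma adjusted p = 0.545 with all arrays and 0.0170 without wild-type normoxia replicate 4). In wild type 1 of the 14 rose with all arrays, and 2 did without normoxia replicate 4, against 10.3% and 8.37% of all genes. Of the 7 white fat genes 0 passed in limma in either hyperoxia comparison, and an unadjusted p under 0.05 was reached by 0 in Fgf10+/- and by 1, Retn, in wild type, with list medians of -0.18 in Fgf10+/- and 0.04 in wild type (0.23 without normoxia replicate 4).

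Correlations among the 10 genes within groups were spread around 0. Over 15 arrays, without wild-type normoxia replicate 4 and with group means subtracted, the 45 pairs had a median Pearson correlation of -0.09, from -0.56 for Plin4 with Cidea to 0.63 for Plin4 with Pparg. The genes most like Plin2 by that measure were Il1b (0.93), Ccl2 (0.93) and Cd14 (0.91), an inflammatory cytokine, a monocyte chemokine and a receptor for bacterial lipopolysaccharide. Fgf10+/- hyperoxia replicate 1 carries much of this: Ccl2 stood at 10.43 there against 6.93 to 7.28 in the other 3 arrays of its group, and without it the correlations over 14 arrays were 0.81 for Il1b, 0.79 for Ccl2 and 0.78 for Cd14. For the other genes the highest correlations lay between 0.84 and 0.91, with Arhgef17 (0.88), Esrrb (0.88) and Pfn2 (0.87) for Lpl, Tcaf2 (0.89), Ttc26 (0.87) and Olfr769 (0.87) for Pnpla2, and Col13a1 (0.86), Mipol1 (0.86) and Ik (0.84) for Cidec. For Lpl these rest in part on Fgf10+/- hyperoxia replicate 4, which had the highest Lpl level (10.69), Esrrb at 5.87 against 3.96 to 4.26 in the other 3 arrays of its group, and the highest mean of the heart muscle list (9.98). Without it the correlations over 14 arrays were 0.73 for Arhgef17, 0.71 for Esrrb and 0.93 for Pfn2. Those of Fabp4 were Gsg1l, Rsph3a and Tirap, those of Pparg were Olfr1451, Rrad and Kir3dl1, and those of Tcf21 were Bco1, Mfsd14a and Kansl1l. Those of Plin1 were Gins1, Ccdc59 and Fam111a, those of Plin4 were Dmtn, Slx and Hoxc13, and those of Cidea were Col9a2, Prg3 and Dffa, where Prg3 stood at 0.85 with and 0.74 without Fgf10+/- hyperoxia replicate 3. These are descriptions over few arrays that share their normalization, with the best of 20166 genes picked for each.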

How the data were processed

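Total RNA of 16 lung homogenates was labelled with Cy3 and hybridised to Agilent arrays, per the labels' protocols. The authors deposited log2 intensities for 62976 features, 33 values missing. The labels do not say how they were normalized; percentiles are near-equal, as quantile normalization gives. Detection flags were not used here.

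Feature names came from GEO's platform annotation updated through RefSeq: 31465 features name 1 gene, 31511 none, and 12 named features with a missing value were left out. Genes were kept above the array's 25th percentile in at least 4 of 16 arrays, each read by its feature of highest mean. A model with 1 mean per group was fitted to all 16 arrays with limma 3.58.1 in R 4.3.3. Exact permutation of arrays was used for the Pparg mean. The pipeline was tested on simulated data. Same-numbered arrays were not treated as pairs: their deviations correlated between -0.03 and 0.09. In 6 of 16 same-number pairings the array correlated best with its own number.

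The 10 genes, the lists and the naming rule were chosen with earlier results of these data known, and the heart muscle list after its values were seen. Named are the 10 genes, Fgf10, fat and muscle markers, up to 4 genes per list with the smallest p in either hyperoxia comparison, and 3 genes most correlated with each of the 10.

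Alternatives were the filter (none, or the 50th percentile), averaging features, rescaling, limma options, array weights, a fit of the compared groups, a replicate block and leaving out each array.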

Additional observations from a re-analysis of the deposited data

Results flagged for a closer look

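Within 68 groups of 4 arrays, 7 held an array far from the others of its group, and chance gives about 1 in 20 for a single group. The 68 include fat and muscle markers picked to check wild-type normoxia replicate 4. Pparg enters by its brightest feature and by its mean. The count is therefore not a test against that rate. Plin1 stood at 4.98 in Fgf10+/- normoxia replicate 1, against 3.94 to 4.03 in the other 3 arrays. Plin2 stood at 11.00 in wild-type normoxia replicate 2, against 11.18 to 11.19, a gap that is small in size. Cidec stood at 5.69 in Fgf10+/- normoxia replicate 4, against 4.73 to 4.89. The mean of the 10 Pparg features stood at 7.90 in wild-type hyperoxia replicate 2, against 7.75 to 7.77. Ucp1 stood at 3.03 in Fgf10+/- hyperoxia replicate 2, against 3.33 to 3.39, and at 7.50 in wild-type normoxia replicate 4, against 3.37 to 3.92. Acta1 stood at 11.26 in that same array, against 5.70 to 5.83.

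Pnpla2 moved in opposite directions under hyperoxia, by 0.35 in Fgf10+/- and -0.31 in wild type, with no overlap between hyperoxia and normoxia arrays in either genotype. The difference between the responses, 0.65, did not pass after adjustment over all genes (limma adjusted p = 0.499). Neither response passed in a limma fit to the compared groups alone (adjusted p = 0.0624 in Fgf10+/- and 0.0917 in wild type).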

How the results depend on the processing

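Lpl in Fgf10+/- hyperoxia (0.66 to 0.82) and Cidec in wild-type hyperoxia (-1.78 to -0.88) kept their direction and their call in all 17 fits. The count of the 10 genes called in wild-type hyperoxia was 4 in place of 2 with the 50th percentile filter, with trend and robust options and with array weights, since Plin2 and Plin4 then passed. The count for genotype in normoxia was 2 in place of 1 in the same 3 settings, where Pnpla2 passed too, and 0 with the mean of all features, after a second quantile normalization and in a fit to the compared groups. Leaving out 1 array at a time gave 2 to 5 genes in Fgf10+/- hyperoxia, 1 to 2 in wild-type hyperoxia, 0 to 1 for genotype in normoxia and 0 for genotype in hyperoxia and for the interaction. In Fgf10+/- hyperoxia, 5 passed without normoxia replicate 3 (Plin4 and Pparg joining) and 5 without wild-type normoxia replicate 4, which changed the shared spread. Pparg also joined there with the 50th percentile filter and with trend and robust options. In a fit to the compared groups, Plin2 and Pnpla2 dropped out in Fgf10+/- while Pparg and Fabp4 joined. The same kind of fit in wild type lost Pnpla2 and called Plin2. With replicate number as a block 4 passed in Fgf10+/- hyperoxia (Cidec at -0.58, limma adjusted p = 0.0271, joining), and the other counts of called genes were as before. The numbers mark no stated litter or batch, and in 6 of 16 same-number pairings over 4 comparisons the array correlated best with its own number. Replicate 4 did so in each of the 4 comparisons. Signs turned only in differences that had not passed: with array weights Fabp4 in wild-type hyperoxia was 0.0206, Plin1 for genotype in hyperoxia 0.0409 and Plin4 for genotype in normoxia 0.0361. The cause of these changes was not tested.

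Leaving out 1 array at a time turned the sign of further small differences. Over these fits, the wild-type hyperoxia difference ranged from -0.34 to 0.66 for Cidea and from -0.34 to 0.38 for Fabp4. For genotype in hyperoxia it ranged from -0.37 to 0.22 for Plin1, -0.0316 to 0.15 for Pparg and -0.20 to 0.0674 for Tcf21, and for genotype in normoxia from -0.33 to 0.24 for Plin4, -0.23 to 0.0995 for Pparg and -0.64 to 0.084 for Fabp4. The interaction, run without the 1 array named, was -0.0583 for Plin1 (wild-type hyperoxia replicate 3), -0.0878 for Plin2 (Fgf10+/- hyperoxia replicate 1), -0.0567 for Cidea (wild-type normoxia replicate 4) and -0.0209 for Pparg (wild-type normoxia replicate 3). For Plin4 it was 0.0514 without Fgf10+/- normoxia replicate 3 and 0.13 without wild-type normoxia replicate 2. Levels near the array's 25th percentile, as for Ucp1 in 15 arrays, have no reliable fold.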
